A study of Rattus norvegicus with 6 samples.

Results

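The neural adhesion genes comprised 59 genes for cell-surface proteins of nerve cells and their synapses, among them Nrcam, the contactins, the neurexins, the teneurins and the IgLON proteins. Their regions were taken from the table that assigns differentially methylated regions to genes. A region was included when its gene was 1 of the 59, and it was counted once per position and sequence context. In total, 201 of the 12262 regions assigned to a gene were found, in 46 of the 59 genes. The share of all annotated genes that have a region was not available. This count of genes, and those by role below, therefore have no background. No region was listed for Chl1, L1cam, Cntn2, Nlgn3, Lrrtm1, Lrrtm2, Slitrk1, Slitrk3, Clstn1, Clstn2, Tenm1, Flrt2 or Flrt3.

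Brain microvascular endothelial cells (BMECs), which line brain capillaries and form the blood–brain barrier, were sorted as CD45-/CD31+ cells from the hippocampus of adult male Sprague-Dawley rats. The CUMS group (3 samples) had undergone chronic unpredictable mild stress for 8 weeks, and the Ctrl group (3 samples) had not been stressed. Cytosine methylation was read after enzymatic conversion with TET2 and APOBEC3A, which reads 5-methylcytosine and 5-hydroxymethylcytosine alike and was reported in 3 contexts: CG, CHG and CHH, where H is A, C or T. The table gives a single level per group and region, so no value below has a replicate error or a test, and the read depth behind each region is not given in the tables. Every listed region had been selected by the authors because its groups differed. "Higher" and "lower" therefore describe the direction of a listed difference, as CUMS relative to Ctrl.

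Adhesion molecules of this kind hold axons, dendrites and synapses together by binding partners on the facing membrane. Neurexins and LAR-type phosphatases sit mainly on the presynaptic side and bind neuroligins, LRRTM and SLITRK proteins across the synaptic cleft, while contactins, Caspr proteins and the L1 family organise myelinated axons and their nodes. Many of these genes are among the longest in mammalian genomes and consist mostly of introns. They are best known from neurons and glia, and levels in sorted BMECs are averages over the cells collected, so a changed share of other cells and a changed level within cells cannot be told apart. A region list gives no level for a gene that has no region, and it could not be used to check the cell type. Of 21 marker genes for endothelial and other brain cells, 9 had a region. They were 2 of 6 endothelial markers (Pecam1 and Tek) and 3 of 4 neuronal ones (Rbfox3, Syt1 and Map2). The others were 2 of 3 oligodendrocyte markers (Mbp and Mog), 1 of 3 astrocyte markers (Aldh1l1) and 1 of 3 microglial markers (Ptprc). Of the 2 pericyte markers, 0 had a region.

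Of the 201 regions, 144 were higher in CUMS and 57 were lower (71.6% higher), against 78.1% of all regions assigned to a gene. By context, 25 of 36 CG regions (69.4%, background 87.7%), 43 of 69 CHG regions (62.3%, background 69.3%) and 76 of 96 CHH regions (79.2%, background 77.5%) were higher in CUMS. The share of higher regions was thus below the background in CG and CHG and near it in CHH, and these gaps were not tested. The CG comparison also mixes settings. An intron was the only gene feature in 63.9% of these CG regions, against 34.4% of all CG gene regions. A difference of at least 10 percentage points was reached by 59 regions (29.4%, background 33.2%), and one of at least 20 points by 25 regions (12.4%, background 10%). The large differences were concentrated in CG regions. At least 10 points were reached by 32 of 36 CG regions (88.9%, background 70.1%), 2 of 69 CHG regions (2.90%, background 2.65%) and 25 of 96 CHH regions (26.0%, background 27.8%), and at least 20 points by 19 CG regions (52.8%, background 25.9%), 1 CHG region (1.45%, background 0.265%) and 5 CHH regions (5.21%, background 4.35%).

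The regions were mostly intronic and mostly outside the CG context. In 176 of 201 regions (87.6%) the only gene feature was an intron, compared with 65.3% of all gene regions. CG regions made up 17.9%, CHG regions 34.3% and CHH regions 47.8% of the total, whereas all gene regions were split almost evenly (32.8%, 33.8% and 33.3%). Genes with many regions in general showed part of the same mix. Over 2226 regions of the 343 other genes with 5 or more regions, 83.5% were intron only, 24.6% were CG and 40.7% were CHH. The adhesion genes were not limited in this way, and only 16 of the 46 had 5 or more regions, so the sets are not matched. Within each context the intron-only share of the adhesion genes was 63.9% for CG, 91.3% for CHG and 93.8% for CHH, against 54.8%, 89.6% and 95.6% in those other genes.

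**Figure D1:**
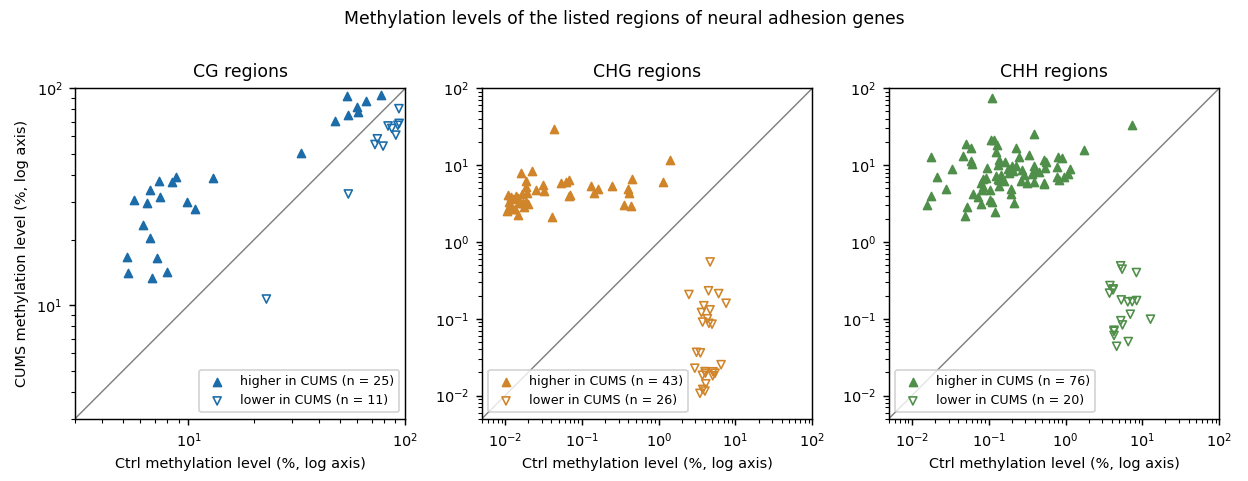
Methylation level in CUMS (vertical axis, %, log scale) against Ctrl (horizontal axis, %, log scale) for the 201 regions, in 1 panel per context, where each symbol is 1 region and the diagonal marks equal levels. In the CHG and CHH panels the lower group lies near zero in almost every region, while CG regions occupy both low and high levels.

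The region number per gene was large. The 46 genes held 4.37 regions on average (median 3), compared with 1.78 (median 1) over all 7415 genes with a region. Of these 46 genes, 16 had 5 or more regions (34.8%), against 360 of all genes (4.86%). Tenm3, which encodes a teneurin that guides the wiring of hippocampal circuits, held 21 regions, the highest number of any gene in the table. Cntnap2 followed with 12, Nrxn3 with 11, and Adgrl2, Cntnap5a, Lsamp and Sdk1 with 10 each. The Adgrl2 regions were counted by gene name over separate gene identifiers, whereas the numbers over all genes are per identifier. These numbers were not divided by gene length, because no gene coordinates of the mRatBN7.2 assembly were used. The density along the chromosome was compared instead, in the full region list. That list adds 1034 CHH regions within the stretches of the adhesion genes, with a median of 56 cytosines and a median absolute difference of 2.63 points, compared with 123 cytosines and 6.79 points for the 96 annotated CHH regions. In the 27 genes whose first and last annotated regions were at least 100 kb apart, the full list held 1141 regions, annotated ones included, between those 2 regions, in 21.1 Mb, or 54.2 per Mb (range over genes 26.9 to 108), against 61.0 per Mb over chromosomes 1 to 20 and X. Per megabase, these stretches were therefore not richer in regions of the full list than the chromosomes as a whole. That list consists mostly of CHH regions (145823 of 160692). The density of the annotated regions alone, or of CG and CHG regions, was not computed.

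**Figure D2:**
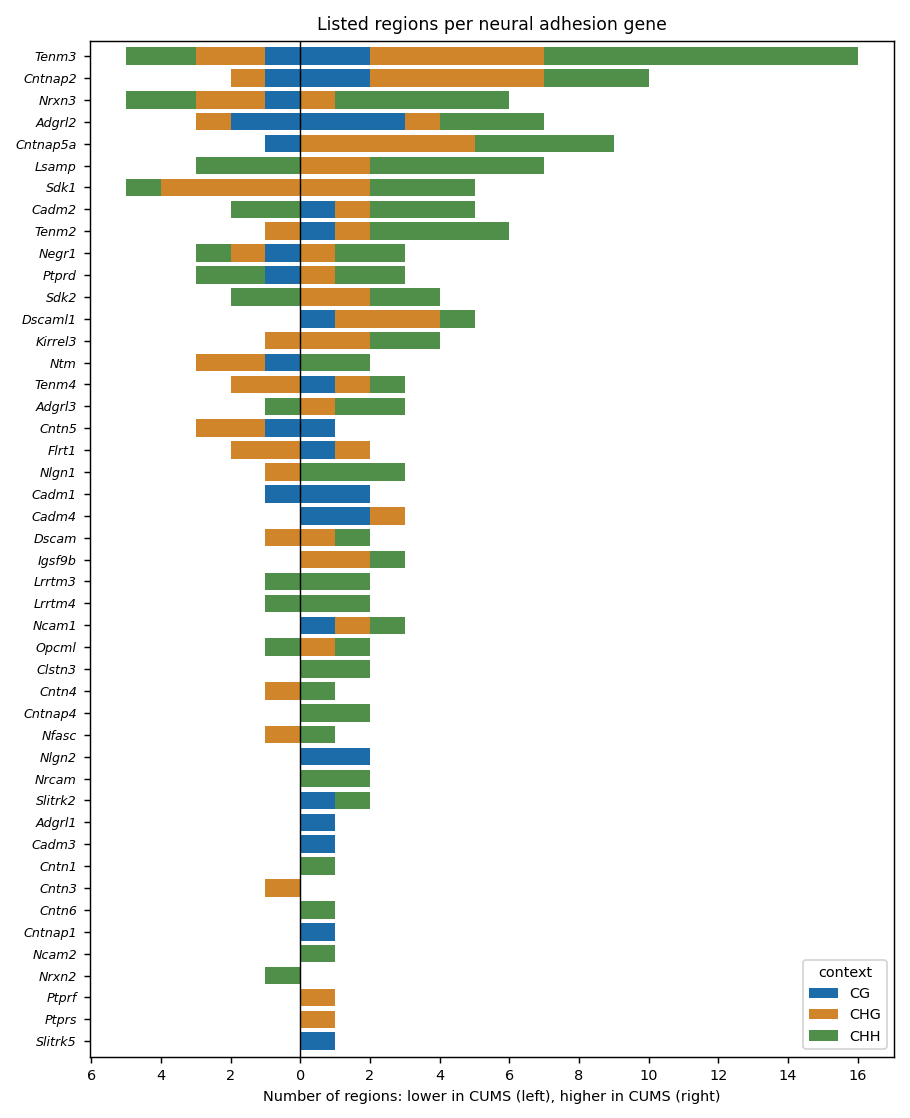
Number of listed regions per gene (horizontal axis) for the 46 neural adhesion genes with a region, with regions higher in CUMS to the right of zero and lower ones to the left, coloured by context. Tenm3 has 16 higher and 5 lower regions, and only Cntn3 and Nrxn2 have lower regions alone.

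Directions were mixed within most genes that had several regions. Regions of both directions were found in 26 genes, 18 had higher regions only, and 2 (Cntn3 and Nrxn2) had lower regions only. In total, 11 of these 46 genes had a single region, against 4545 of all 7415 genes with a region. Genes with both directions were not counted over all genes, so whether this mix is particular to the adhesion genes is unknown.

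The promoter of the adhesion gene itself held 8 regions, of which 7 were higher in CUMS and 5 were CG regions. Over all gene regions that touch a promoter, 96.9% of the CG and 80.9% of the CHH regions were higher. Cadm4, which encodes a SynCAM-type adhesion protein, had 29.7% in CUMS and 6.41% in Ctrl over 138 bp (chr1:80075028-80075165, mRatBN7.2, 31 cytosines). Nlgn2, the neuroligin of inhibitory synapses, had 20.5% and 6.64% (chr10:54558129-54558349), in a region shared with the neighbouring gene Tmem256. Adgrl1, which encodes a latrophilin, had 29.8% and 9.83% in a region that also covers its transcription start site (chr19:24243863-24244155). Cadm1 had 16.4% and 7.16% (chr8:47847787-47847897). Slitrk2, on the X chromosome, had 14.1% and 5.26% (chrX:145250111-145250243). All 5 had Ctrl levels under 10% and CUMS levels between 14.1% and 29.8%, and all but the Slitrk2 region lay in a CpG island.

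The RefSeq promoter table, which is of the GRCr8 assembly, holds 4 of the 8 genes. Adgrl1, Cadm1, Cntnap4 and Nrxn2 are not in it. The windows below are the 250 bases before the annotated start of the 3 genes with a CG promoter region, 5′ to 3′ on the gene's strand, with CG dinucleotides in capitals. They are shown because CG pairs are the cytosines counted in those regions. The build differs from that of the regions, so a window and a region need not cover the same bases.
Cadm4, chr1:89202839-89203088, plus strand: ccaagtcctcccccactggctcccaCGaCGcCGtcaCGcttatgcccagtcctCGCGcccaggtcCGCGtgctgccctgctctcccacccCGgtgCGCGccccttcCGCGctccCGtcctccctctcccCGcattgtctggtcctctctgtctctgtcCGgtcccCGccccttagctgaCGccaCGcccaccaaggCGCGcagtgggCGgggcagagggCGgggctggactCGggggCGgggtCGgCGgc
Nlgn2, chr10:55056579-55056828, minus strand: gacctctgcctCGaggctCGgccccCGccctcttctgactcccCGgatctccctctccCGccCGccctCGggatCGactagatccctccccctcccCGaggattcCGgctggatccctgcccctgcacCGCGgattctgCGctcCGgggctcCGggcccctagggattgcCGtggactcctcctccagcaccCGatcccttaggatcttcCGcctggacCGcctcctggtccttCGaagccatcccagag
Slitrk2, chrX:150291341-150291590, plus strand: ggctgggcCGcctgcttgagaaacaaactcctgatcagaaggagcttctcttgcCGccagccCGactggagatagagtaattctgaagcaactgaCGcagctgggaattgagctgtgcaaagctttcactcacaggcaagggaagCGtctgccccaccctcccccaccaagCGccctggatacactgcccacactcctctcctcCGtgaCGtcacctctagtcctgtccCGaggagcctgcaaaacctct

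The motif searched was CG, which reads the same on both strands. The Cadm4 window holds 27 CG pairs, a number reached by 7.69% of all 33469 promoter windows of this length. The Nlgn2 window holds 20 (reached by 16.7%) and the Slitrk2 window 9 (reached by 38.5%), while the median window holds 5. All 3 windows are thus above the median. Nfasc has 2 windows in the table, with 4 and 2 CG pairs.

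The other 3 promoter regions were CHH regions. Cntnap4, which encodes a Caspr protein of interneuron synapses, had 11.0% in CUMS and 0.162% in Ctrl (chr19:40568406-40568640). Nfasc, which encodes neurofascin of the nodes and initial segments of axons, had 2.88% and 0.0519% (chr13:44149161-44149566). Nrxn2, a presynaptic neurexin, went the other way, with 0.0986% in CUMS and 12.8% in Ctrl (chr1:203805969-203806309). The Nrxn2 region lies in a CpG island and was the only one of the 8 promoter regions that was lower in CUMS. Counting promoters of any gene, 10 of the 201 regions (4.98%) touched a promoter, compared with 18.7% of all gene regions.

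CG regions differed by their setting. In CpG islands, 15 of 16 regions were higher in CUMS (93.8%, background 97.8%). These 15 regions came from 12 genes, with a median of 7.99% in Ctrl and 31.5% in CUMS. A difference of at least 20 points was reached by 7 of the 16 (43.8%, background 15.2%, and 18.3% in the other genes with 5 or more regions). Those other genes are limited by region number and the adhesion genes are not, here and in the open sea. In the open sea, which is DNA far from any island, 8 regions were higher and 10 were lower (44.4% higher), against 62.3% higher over all open-sea gene regions and 59.7% in the other genes with 5 or more regions. The 10 lower regions had a median of 84.9% in Ctrl and 63.1% in CUMS. A difference of at least 20 points was reached by 11 of the 18 open-sea regions (61.1%, background 51.9%, and 55.1% in those other genes). The other 2 CG regions, in Cntnap1 and Cadm2, lay in island shelves and were higher. All 13 CG regions that touched an exon, untranslated region, promoter or start site were higher, as were 96.3% of all such gene regions, and of the 23 with only an intron 12 were higher and 11 were lower (52.2% higher, against 71.2% over all such regions).

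The CG regions were also sorted by their Ctrl level, which itself enters the difference. Every one of the 17 CG regions with a Ctrl level under 20% was higher in CUMS, as were 99.2% of all such gene regions. A region with so low a Ctrl level has little room for a listed fall. This share was therefore largely fixed by the sorting and shows no link between starting level and direction. Of the 19 with a Ctrl level of 20% or more, 11 were lower (57.9%), against 38.9% of all such gene regions. Without values per rat, whether this share departs from the background could not be tested.

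**Figure D3:**
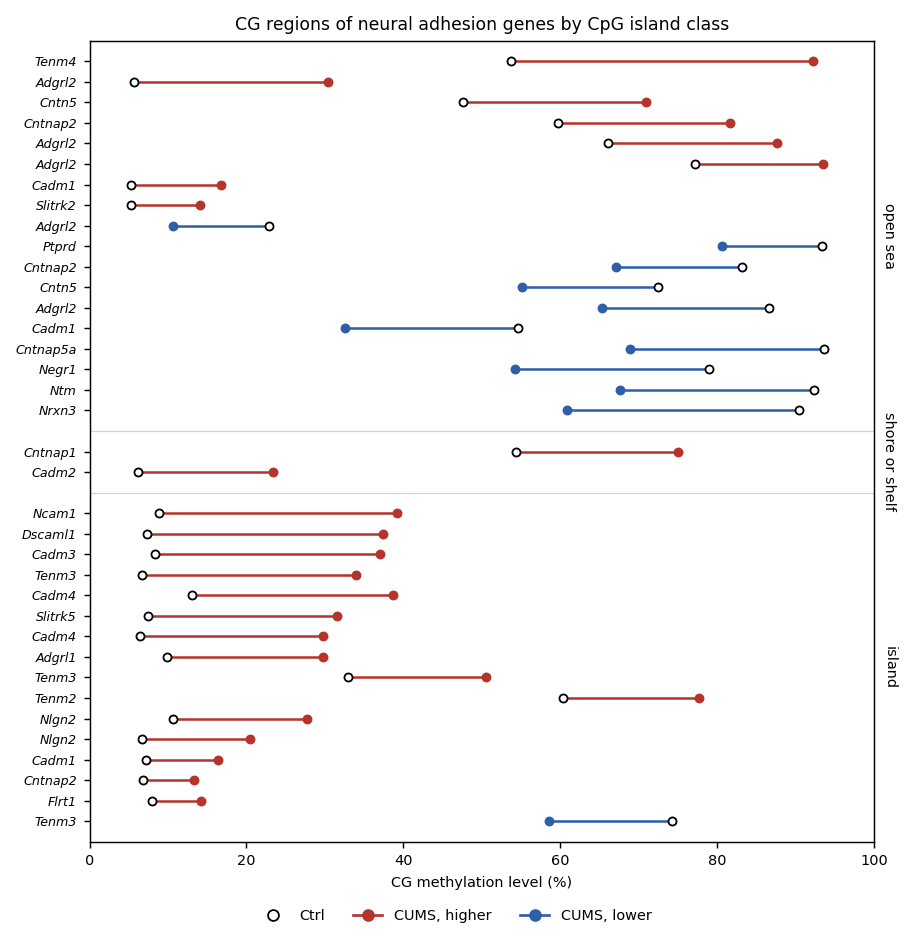
CG methylation level (%, horizontal axis) of the 36 CG regions, with open circles for Ctrl and filled circles for CUMS, joined by a line that is red where CUMS is higher and blue where it is lower. In CpG islands 15 of 16 lines run to the right, most of them from Ctrl levels under 20%, whereas in the open sea 10 of 18 run to the left, most of them from Ctrl levels above 70%.

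The largest CG gains were found in Tenm4, with 92.2% in CUMS and 53.7% in Ctrl in an open-sea intron (chr1:151133799-151133877, 9 cytosines), and in 4 island regions. Ncam1, the neural cell adhesion molecule, had 39.2% and 8.79% (chr8:50164390-50164617), and Dscaml1, a homophilic recognition molecule of the DSCAM family, had 37.3% and 7.33% (chr8:45740566-45740674). Cadm3 had 37.0% and 8.40% in an exon (chr13:85817336-85817427), and Tenm3 had 34.0% and 6.67% over 290 bp and 79 cytosines at a 5′ untranslated exon (chr16:43359777-43360066). The 4 island regions shared Ctrl levels under 9%, while the Tenm4 region was already methylated in Ctrl.

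The largest CG losses were all intronic, open-sea regions. Nrxn3 had 60.9% in CUMS and 90.4% in Ctrl (chr6:109203481-109203536, 5 cytosines), and Ntm, which encodes the IgLON protein neurotrimin, had 67.5% and 92.3% (chr8:27650829-27650895, 6 cytosines). Cntnap5a had 68.9% and 93.6% (chr13:9493518-9493573), Negr1, another IgLON gene, had 54.2% and 78.9% (chr2:246095339-246095420), and Cadm1 had 32.6% and 54.6% (chr8:48181942-48182041). Apart from Cadm1, these regions were highly methylated in Ctrl and were above 50% in CUMS. The only island region that was lower lay in an intron of Tenm3, with 58.5% in CUMS and 74.3% in Ctrl (chr16:43336327-43336407).

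CG regions of both directions occurred in the same gene in Cntn5, Cntnap2, Adgrl2, Tenm3 and Cadm1. In Cadm1 the promoter island (16.4% and 7.16%) and an intron (16.7% and 5.23%) were higher, and another intron was lower. In Cntn5, a contactin gene, an intronic region had 70.8% in CUMS against 47.6% in Ctrl, and another region, 32.0 kb away, had 55.1% and 72.4%. In Adgrl2, a latrophilin gene, a region with 93.5% and 77.1% lay 6.46 kb from one with 10.7% and 22.9%. The closest regions of opposite direction were 23.4 kb apart in Tenm3, 130 kb apart in Cadm1 and 516 kb apart in Cntnap2. Opposite CG differences were thus recorded within single genes at distances from 6.46 kb to 516 kb.

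**Figure D4:**
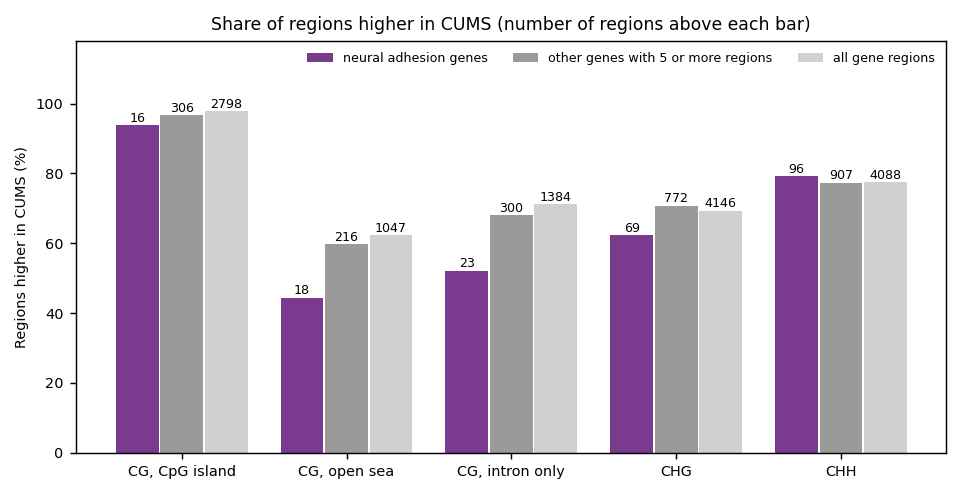
Share of regions higher in CUMS (%, bars from zero) for the neural adhesion genes, for the other genes with 5 or more regions and for all gene regions, in 5 classes, with the number of regions above each bar. The limit of 5 or more regions was not applied to the adhesion genes. The adhesion genes lie closest to the background in CpG islands and in CHH, and furthest below it in open-sea and intron-only CG regions.

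Non-CG methylation is rare in most cell types and is best known from mature neurons. In the CHG and CHH regions of the adhesion genes, the group with the lower level was close to zero, at less than 1% in 67 of 69 CHG and 92 of 96 CHH regions. In the higher group the median level was 4.13% in CHG and 6.97% in CHH. This pattern was general, since the lower level was under 1% in 99.2% of all CHG and 92.0% of all CHH gene regions.

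The largest CHH difference lay in an intron of Kirrel3, which encodes an immunoglobulin-domain protein that sorts synaptic partners. Its methylation reached 75.9% in CUMS, against 0.109% in Ctrl, over 141 bp and 87 cytosines (chr8:33310586-33310726). By absolute difference it ranked 1 among the 145823 CHH regions of the full list, in which 4 reached 70% in the higher group and 15 reached 50%. Within 5 kb of it the full list held 3 other regions, and all 3 were lower in CUMS: a CHH region with 0.311% and 2.87%, a CHG region with 0.0195% and 4.06%, and a second CHH region with 0.193% and 2.37%. No listed CG or CHG region overlapped it. The region thus stood alone among its listed neighbours in direction and in size.

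Other large CHH gains were also intronic. Nlgn1, the neuroligin of excitatory synapses, had 33.3% in CUMS and 7.26% in Ctrl in a region that overlaps a SINE repeat (chr2:108716816-108717109). Sdk2, a sidekick recognition molecule, had 25.6% and 0.391% (chr10:98863673-98863989), and Lrrtm4, a postsynaptic neurexin partner, had 21.5% and 0.117% (chr4:112974726-112974950). Ncam2 had 21.1% and 0.107% (chr11:20283752-20284026). Among these, only the Nlgn1 region had a Ctrl level above 2%. In all, 25 CHH regions reached 10% in the higher group and 24 of these were higher in CUMS, the exception being the Nrxn2 promoter. Over all gene regions, 89.6% of the CHH regions at this level were higher.

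CHH losses were smaller. After the Nrxn2 promoter, the largest were in an intron of Nrxn3 (0.172% in CUMS and 8.42% in Ctrl, chr6:107742214-107742521), in Ptprd, a LAR-type phosphatase gene (0.399% and 8.36%, chr5:90998870-90999078), in a second Nrxn3 intron region (0.167% and 7.38%, chr6:107830905-107831197) and in Cadm2 (0.114% and 6.97%, chr11:4720767-4721072). Of all 20 CHH losses, 5 lay in neurexin and LAR-type phosphatase genes, which held 12 of the 96 CHH regions.

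In the CHG context, 1 region stood apart. It lay in an intron of Nrxn3, spanned 440 bp and 54 cytosines, and had 29.2% in CUMS and 0.0434% in Ctrl (chr6:107937870-107938309). A CHH region of the full list overlapped it and had nearly the same levels, 27.2% and 0.0467%. The next CHG gain, in Ptprd, was 11.8% against 1.41% (chr5:91986078-91986191), and the following ones were 8.37% against 0.0226% in Cadm2, 7.89% against 0.0163% in Dscam and 6.48% against 0.0687% in Tenm3. CHG losses did not exceed 8 points. They were largest in Cntn5 (0.159% in CUMS and 7.55% in Ctrl), Ntm (0.0252% and 6.50%), Cntnap2 (0.212% and 6.04%), Tenm2 (0.0195% and 5.42%) and Sdk1 (0.0204% and 5.09%).

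CHG and CHH regions often coincided. Of the 69 CHG regions, 41 (59.4%) were overlapped by a CHH region of the full list, and in all 41 pairs both contexts differed in the same direction. Only 1 of 36 CG regions was overlapped by a non-CG region, the lower intronic region of Cadm1, where the CHH level went the other way (2.62% in CUMS and 0.0623% in Ctrl). Among the annotated regions, 7 pairs lay within 1 kb of each other, and 6 of these had the same direction. In the exception, Lrrtm3, a CHH region with 18.3% in CUMS and 0.127% in Ctrl was followed after 185 bp by one with 0.0606% and 4.28%. Both Lrrtm3 regions were also assigned to another gene, so they cannot be attributed to Lrrtm3 alone. Overlaps and close pairs were not counted over all gene regions, so whether they are particular to these genes is unknown.

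Repeats were overlapped by 37.3% of the regions, compared with 33.0% of all gene regions. Among intron-only regions these shares were 41.5% and 45.0%. By context they were 16.7% and 13.2% in CG, 52.2% and 38.1% in CHG, and 34.4% and 47.3% in CHH. The pooled excess was thus not seen among intron-only regions or in CHH. LINE/L1 elements were overlapped by 17 of 69 CHG regions (24.6%, against 12.8%), and SINE elements by 7 of 96 CHH regions (7.29%, against 22.1%). All these shares are descriptions of the listed regions and were not tested.

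The counts by role are small and are read beside the shares of all gene regions, of which 78.1% were higher in CUMS (87.7% in CG, 69.3% in CHG and 77.5% in CHH). The L1 family held 4 regions in 2 of 4 genes. Nrcam, an ankyrin-binding protein of nodes and synapses, had 2 intronic CHH regions, both higher in CUMS: 4.94% and 0.193% (chr6:61480583-61481003), and 6.14% and 0.159% (chr6:61661646-61661882). Nfasc had the promoter CHH region described above and an intronic CHG region with 0.0142% in CUMS and 4.11% in Ctrl. The contactins had 9 regions in 5 of 6 genes, 4 higher and 5 lower. All 4 CHG regions were lower, where 69.3% of all CHG gene regions were higher, and all 3 CHH regions were higher, where 77.5% of all CHH gene regions were. Cntn3 had 1 region, a CHG region with 0.0359% and 3.49%.

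The Caspr family, whose proteins pair with contactins at the axon membrane, had 25 regions in 4 of 4 genes, with 22 higher and 3 lower (88.0% higher). All 9 CHH and 10 of 11 CHG regions were higher, against 77.5% and 69.3% of all such gene regions. A pair of CHG regions in Cntnap2 (98 bp apart) and another in Cntnap5a (83 bp apart) were counted as separate regions. Cntnap5a had 9 higher regions and 1 lower, and Cntnap2 had 10 and 2. The first region of Cntnap2, at a 5′ untranslated exon in an island, had 13.3% and 6.76%, while its 11 other regions were intronic. All 12 regions of the gene lay within 2196 kb.

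The neurexins and LAR-type phosphatases, the presynaptic side, had 20 regions in 5 of 5 genes, with 11 higher and 9 lower (55.0% higher). Both CG regions, in Nrxn3 and Ptprd, were lower, and CHH regions were 7 higher and 5 lower. Nrxn3 alone had 6 higher and 5 lower regions. The postsynaptic partners, namely neuroligins, LRRTM, SLITRK and calsyntenin proteins, had 17 regions in 7 of 14 genes, with 14 higher and 3 lower (82.4% higher, near the 78.1% of all gene regions). All 4 of their CG regions were higher, as were 87.7% of all CG gene regions. Slitrk5, which had only a CG island region, had 31.5% in CUMS and 7.42% in Ctrl.

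Latrophilins, teneurins and FLRT proteins, which bind one another across the synapse, had 52 regions in 7 of 10 genes, with 38 higher and 14 lower (73.1% higher). CHH regions were 19 higher and 3 lower, and CHG regions were 10 higher and 8 lower. Tenm3 accounted for 21 of the 52 regions, spread over 2543 kb, and 2 of its 3 CG regions were higher, at a 5′ untranslated exon and at the 3′ untranslated exon (50.5% and 32.9%). Of the 10 Adgrl2 regions, 5 were CG regions in open-sea introns, 3 higher and 2 lower. All 4 Flrt1 regions were also assigned to Macrod1, so they cannot be attributed to Flrt1 alone.

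The IgLON genes Lsamp, Ntm, Opcml and Negr1 had 24 regions, 14 higher and 10 lower (58.3% higher). Both CG regions were lower, and 22 of the 24 regions were intron only. Lsamp had 10 intronic regions over 1747 kb, with a highest level of 18.9% in CUMS against 0.0512% in Ctrl in a CHH region. The NCAM, DSCAM and sidekick genes had 28 regions in 6 of 6 genes, with 20 higher and 8 lower (71.4% higher). Sdk1 held 5 of each direction, whereas all 5 regions of Dscaml1 and all 3 of Ncam1 were higher. The SynCAM genes, with Kirrel3 and Igsf9b, had 22 regions in 6 of 6 genes, 18 higher and 4 lower (81.8% higher), and 6 of their 7 CG regions were higher. Both shares were near those of all gene regions, 78.1% and 87.7%.

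**Figure D5:**
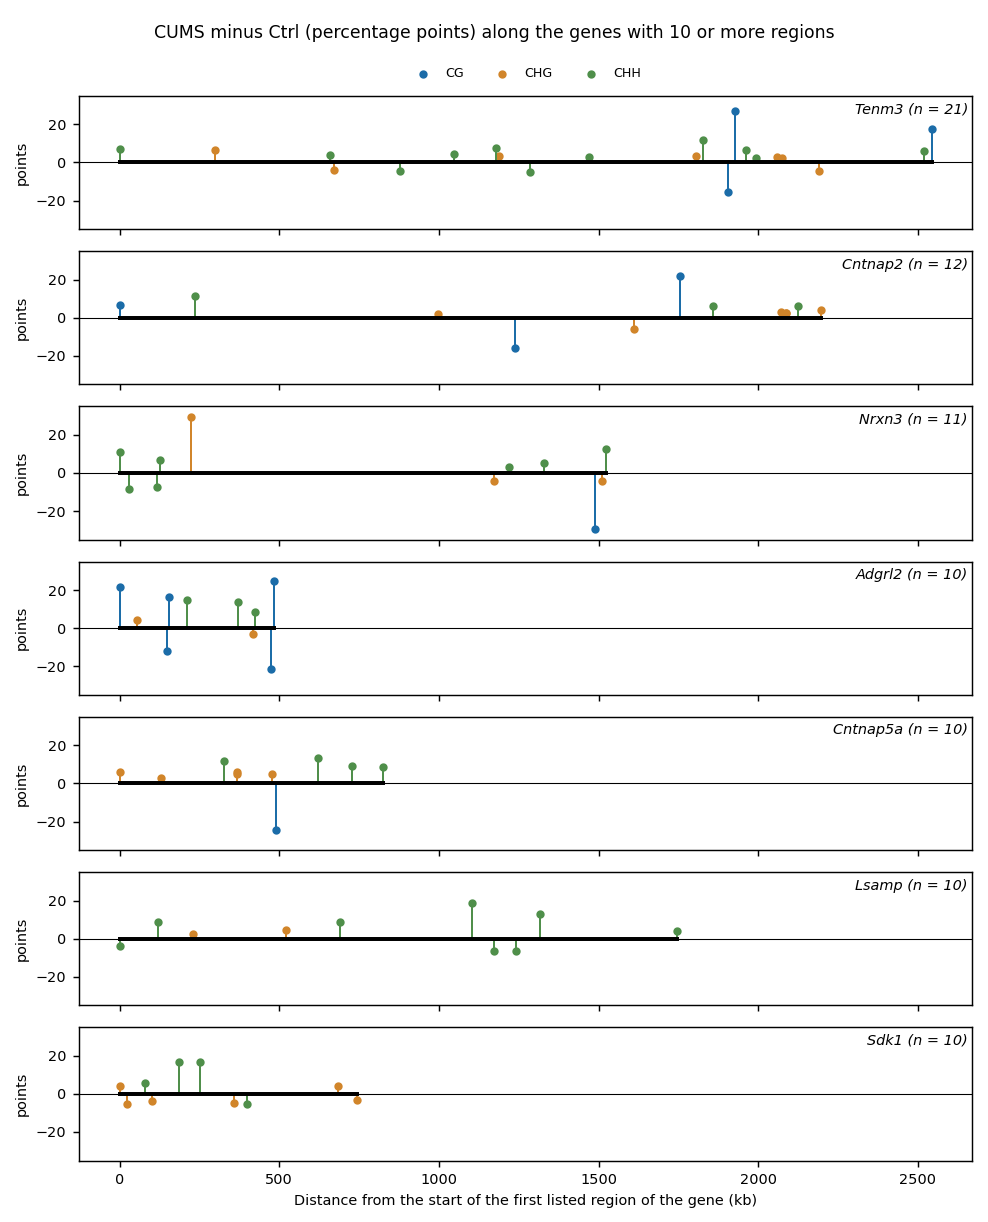
CUMS minus Ctrl (percentage points, vertical axis) of each listed region along the 7 genes with 10 or more regions, placed by distance in kb from the start of the first region and coloured by context. Higher and lower regions are interspersed along Tenm3, Nrxn3 and Sdk1, while 9 of 10 differences in Cntnap5a point up.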

How the data were processed

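DNA of sorted hippocampal BMECs (3 CUMS and 3 Ctrl samples) was converted enzymatically and sequenced. Per the labels and the study's methods, the authors checked reads with FastQC 0.11.3, trimmed them with fastp 0.20.0, aligned them to mRatBN7.2 with Bismark 0.16.3 and Bowtie2, and called regions with DSS. Unmethylated cytosines that escape conversion are read as methylated, which raises the measured level of a region. The deposited tables give, for each region, the methylation level of each group as a fraction from 0 to 1, printed here in percent, and the number of cytosines. The study states the sequencing coverage of its samples, but the tables give no coverage per region and no value per sample, so the precision of a level is unknown. The planned tests on samples were not run, and the main shares by direction, context and size of difference are given beside those of all gene regions. The tables' own difference and region score are the authors' comparison and were not used. Differences were recomputed as CUMS minus Ctrl in percentage points.

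Regions were counted once by position and context, and a region assigned to several genes counted for each. Every listed region of Flrt1, Lrrtm3, Nlgn2 and Adgrl1 was also assigned to another gene. The same holds for a region each of Clstn3, Negr1 and Lsamp. Intron only means that an intron was the only gene feature. The methods state a limit of 10 points, whereas the smallest difference in the table was 2.00 points; regions were used as listed. Genes were named by a rule: Nrcam, the 5 genes with most regions, the 5 largest differences per context and direction, promoter regions, lower CpG island regions, genes with CG regions of each direction or lower regions alone, genes without a region, and the 3 genes with most regions in a list of 31 related genes. Other genes are named in the accounts of roles and pairs, and were chosen after their values were seen. The members and lists were chosen with earlier results of these data known. Scripts (Python 3.11.15, pandas 2.3.3, numpy 2.4.6) were tested on simulated data. Promoter sequences are from RefSeq (GRCr8). The alternatives were other limits on the difference and on cytosines (at least 20), single contexts, joining within 1 kb, regions of no other gene, leaving out the 3 genes with most regions or the X chromosome, the full list and, chosen after seeing the data, leaving out repeats.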

Additional observations from a re-analysis of the deposited data

Results flagged for a closer look

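The full region list held 1034 CHH regions within the stretches of the adhesion genes, from the first to the last annotated region of each gene, that the annotation table does not hold. Above they enter only the density and its description, the overlap between contexts, and the neighbours of the Kirrel3 region. Of these regions, 667 were higher and 367 were lower in CUMS (64.5% higher), compared with 63.5% of all 135830 regions that were not annotated. The higher regions had a median of 2.84% in CUMS against 0.152% in Ctrl, and for the lower ones these medians were 0.156% and 2.75%. Most single regions therefore had levels of a few percent in the higher group and near zero in the other.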

How the results depend on the processing

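Of 49 values recomputed under another setting, 34 stayed within their 95% binomial interval or within 1.5 times the value given, 15 moved by more and 0 changed direction. Most of the 49 are counts, CHH shares or intron-only shares, which have no direction to change. Only the share of higher regions and the median CG difference could have reversed. The interval treats regions as independent, although many share a gene, and most settings keep a subset of the same regions. These numbers therefore describe how far the values shift and are not a test of them. The number of regions was 59 with a difference of at least 10 points, 25 with at least 20 points, 126 without repeats and 1235 in the full list within the stretches of the genes, and the number of genes with a region was 21 at 20 points. The share of higher regions was 62.3% in CHG alone, 79.2% in CHH alone, 78.3% with at least 20 cytosines and 79.7% at 10 points, and it was above 50% in every setting run. The intron-only share was 63.9% in CG alone, 93.8% in CHH alone, 81.4% at 10 points and 81.7% without repeats. The CHH share was 67.1% with at least 20 cytosines and 20% at 20 points. CHH regions hold more cytosines and CG regions larger differences, so both limits change the mix of contexts by their construction. Leaving out repeats was chosen after seeing the data. No paired analysis was possible because each group has only its combined level. For the same reason no sample could be left out, and a coverage minimum was not run. The coverage behind single regions is not in the tables, so no counting interval could be given for a level.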

Other observations

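The related genes outside the 59, a list of 31 synaptic organisers, ankyrins, scaffolds and further adhesion partners, had 54 regions in 21 genes, of which 44 were higher and 10 were lower in CUMS (81.5% higher, against 78.1% of all gene regions). All 19 of their CG regions were higher, compared with 87.7% of all CG gene regions. Their CHG regions were 11 higher and 8 lower, and their CHH regions were 14 higher and 2 lower.

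Il1rapl2, an X-linked synaptic organiser of the interleukin receptor family, had 8 regions, 7 higher and 1 lower. Its CG region, at a 5′ untranslated exon, had 27.4% in CUMS and 9.11% in Ctrl. Shank2, which encodes a scaffold of excitatory synapses, had 7 regions, 4 higher and 3 lower, and its largest difference was a CG region in an intron with 86.4% and 59.6%. Mdga2, whose protein binds neuroligins and blocks their contact with neurexins, had 6 regions, 4 higher and 2 lower. An intronic CHG region of Mdga2 had 0.0339% in CUMS and 18.9% in Ctrl, a larger CHG loss than any in the 59 genes.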
